A study of Mus musculus with 4 samples.

Results

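NMDA receptors are glutamate-gated cation channels built from subunits encoded by 7 mouse genes, Grin1, Grin2a, Grin2b, Grin2c, Grin2d, Grin3a and Grin3b. All 7 were found by gene symbol among the 16149 genes of the deposited hippocampal tables, as 16 RefSeq transcripts, and their signal is described here in wild-type and Tas1r3 knockout mice. Tas1r3 encodes a subunit of the sweet and umami taste receptors. Total hippocampal RNA was sequenced in 4 libraries, 2 from wild-type mice (WT-WD) and 2 from Tas1r3 knockout mice (KO-WD), and all of the mice ate a western diet for 18 weeks. The diet is thus common to both groups, and a group on another diet was not analysed here. No source used here gives the strain, sex, age, knockout allele or number of animals per library, so p-values measure the spread between these libraries, which may be technical.

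Each NMDA receptor holds a pair of GluN1 subunits (Grin1), which bind glycine or D-serine, and a pair of other subunits. GluN2 subunits bind glutamate and set the kinetics and the magnesium block of the channel, while GluN3 subunits bind glycine and lower its calcium permeability. In the hippocampus these channels are known for triggering long-term potentiation, a lasting strengthening of synapses that is widely studied as a basis of memory. GluN2B prevails in the young forebrain and GluN2A rises after birth, so the balance of Grin2a and Grin2b is a common readout of synapse maturity.

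Grin1 RNA is spliced in 3 places, and the sequences below show what separates its isoforms. They were read from the GENCODE M21 transcripts (GRCm38) matched to RefSeq, all on the minus strand of chromosome 2. Of the 8 deposited Grin1 transcripts 3 could be matched, and the exon content of the other 5 was not analysed here. The N1 exon, of 63 bases, is exon 4 of NM_001177656 at chr2:25311343-25311405 and encodes a loop of the amino-terminal domain that is known to lower inhibition by protons. In the lines for N1 and C1, capitals mark the cassette, and lower case marks 15 bases of the exon on each side.
N1 included (NM_001177656): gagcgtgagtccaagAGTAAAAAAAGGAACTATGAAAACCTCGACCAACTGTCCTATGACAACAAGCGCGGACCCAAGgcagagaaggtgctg
N1 skipped (NM_001177657): gagcgtgagtccaaggcagagaaggtgctg
C1 included (NM_008169): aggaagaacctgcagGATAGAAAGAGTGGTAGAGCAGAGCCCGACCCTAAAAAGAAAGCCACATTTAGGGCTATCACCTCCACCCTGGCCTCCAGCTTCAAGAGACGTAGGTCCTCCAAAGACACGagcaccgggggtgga
C1 skipped (NM_001177657): aggaagaacctgcagcagtaccatcccact

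The C1 exon, of 111 bases, is exon 19 of NM_008169 at chr2:25294438-25294548. It encodes the stretch of the intracellular tail that carries the signal for retention in the endoplasmic reticulum and binds calmodulin. Both cassettes are multiples of 3 bases, so either can be skipped without a shift of frame. The last exon starts at either of a pair of acceptor sites 356 bases apart, which gives the tail the end called C2 or the end called C2', the latter known to promote surface delivery. The coding part of each end is shown here, C2 with 114 bases (chr2:25292368-25292484) and C2' with 66 bases (chr2:25292060-25292128), with capitals on the stop codon.
C2 end (NM_008169): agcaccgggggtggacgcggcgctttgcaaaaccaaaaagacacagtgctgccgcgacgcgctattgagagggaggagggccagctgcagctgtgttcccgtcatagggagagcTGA
C2' end (NM_001177657): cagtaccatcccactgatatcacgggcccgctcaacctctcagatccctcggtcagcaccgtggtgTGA
In these terms NM_008169 lacks N1 and holds C1 and C2 (938 amino acids). NM_001177656 holds N1, lacks C1 and ends in C2' (906 amino acids). NM_001177657 lacks both N1 and C1 and ends in C2' (885 amino acids).

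Signal is the authors' normalized signal, called units here, summed over the transcripts of a gene. Depth, estimated from the spacing of low values, ran from 11584819 to 15947219 reads per library, so that 1 read is worth between 0.188 and 0.258 units. Tas1r3 was at 16.1 and 15.9 units in WT-WD and at 0.887 and 1.85 units in KO-WD (limma log2 -2.88, adjusted p = 0.0817). Its adjusted p was 0.0476 with the replicate number as a block, 0.0188 when KO-WD replicate 1 was left out and 0.00959 when KO-WD replicate 2 was. It missed 0.05 under the other 12 alternatives, among them 0.165 and 0.243 when WT-WD replicates 1 and 2 were dropped in turn, 0.370 with voom weights and 0.538, the highest, without trend or robust moderation. The tissue label was checked against marker genes. No marker among the 8 pan-neuronal, 5 CA1, 6 CA3 and 6 dentate granule genes was under the floor of 3 reads in every library. They include Prox1 of dentate granule cells, at 182.0 to 223.7 units, and Fibcd1 of CA1 pyramidal cells, at 318.1 to 369.1 units. No cortex (6 genes) or thalamus (6 genes) marker was under that floor in every library either, so the floor cannot set hippocampus apart from them. Cortex markers summed to 546 and 544 units in WT-WD and 478 and 523 units in KO-WD. Thalamus markers summed to 253 and 283 units in WT-WD and 322 and 219 units in KO-WD. All 8 choroid plexus markers had a higher mean in KO-WD and 0 passed in limma. Genotypes did not overlap for 6 of these 8, against 36.3% of all genes, and Ttr and Folr1 did overlap. The summed levels of the choroid plexus markers were 3633 and 1486 units in WT-WD and 7268 and 3687 units in KO-WD. All 7 oligodendrocyte markers had a lower mean in KO-WD and 0 passed, with sums of 14143 and 15561 units against 12199 and 11158 units. Pan-neuronal markers had a lower mean in KO-WD for 7 of 8, with 0 passing, and sums of 14285 and 14255 units against 13355 and 13916 units. The part of these marker levels in the results below was not tested.

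None of the 7 NMDA receptor genes was called as different between the genotypes in limma. A call is an adjusted p under 0.05 over all 15708 tested genes. Tas1r3 itself missed this threshold in limma (adjusted p = 0.0817), so a missed call does not show that a gene is unchanged. Over all genes 10 were called (0.0637%), 8 higher (0.0509%) and 2 lower (0.0127%) in KO-WD. At an unadjusted p under 0.05 the count was 0 of 7, against 5.28% of all genes. Of the 7 members, 3 were higher and 4 lower in KO-WD, with a median log2 difference of -0.0953 (0.00 over all genes, of which 50.1% were higher). In bulk tissue, fewer cells that express a gene and less RNA per cell cannot be told apart.

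Grin1, the subunit every NMDA receptor needs, gave 2092 and 1983 units in WT-WD against 2026 and 2311 units in KO-WD. The genotypes overlapped, with WT-WD replicate 2 lowest and KO-WD replicate 2 highest. Means were 2038 ± 77.1 and 2169 ± 202 units (SD, n = 2 each), a fold change of 1.06 on the log2(signal + 1) scale. Its 95% interval in limma ran from 0.879 to 1.28 (log2 0.09, SE 0.12, adjusted p = 0.942). Without KO-WD replicate 2 the log2 difference was -0.00769. With between 8095 and 10569 estimated reads per library, counting error is small beside the spread between the KO-WD libraries.

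**Figure D1:**
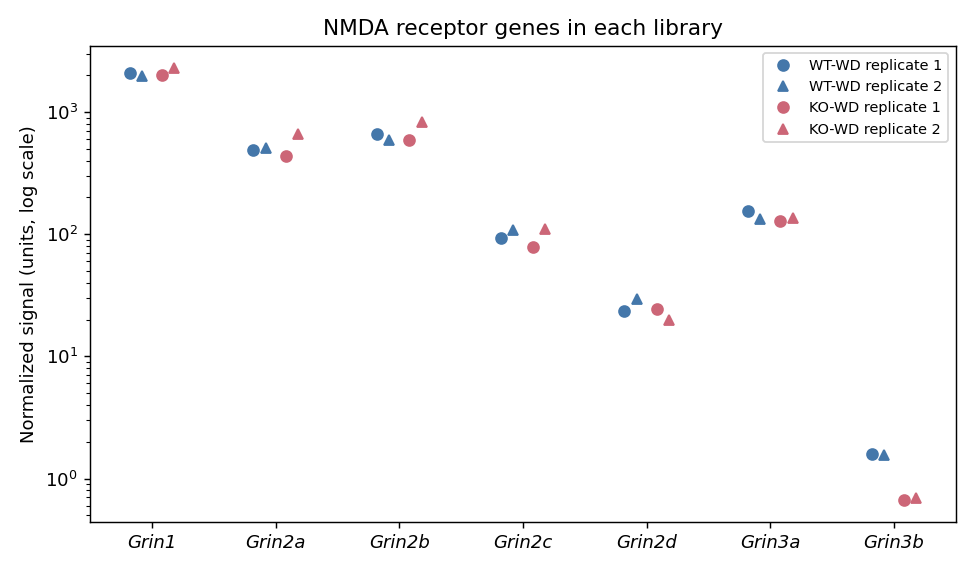
Normalized signal (units, log axis) of the 7 NMDA receptor genes, 1 point per library, with WT-WD in blue, KO-WD in red, circles for replicate 1 and triangles for replicate 2. Grin1 sat between 1983 and 2311 units, and only Grin3b, near 1 unit, had genotypes that did not overlap.

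Grin2a, the subunit of fast mature receptors, stood at 492 and 511 units in WT-WD and at 439 and 658 units in KO-WD. Grin2b, the subunit that binds the kinase CaMKII and gives slower currents, stood at 656 and 594 units in WT-WD and at 587 and 834 units in KO-WD. For both genes KO-WD replicate 1 was the lowest library and KO-WD replicate 2 the highest, so the WT-WD values lay between those of the knockout. The fold change of Grin2a was 1.07 (log2 0.10, 95% interval -0.38 to 0.58, limma adjusted p = 0.964) and that of Grin2b 1.12 (log2 0.16, 95% interval -0.26 to 0.59, adjusted p = 0.929). Without KO-WD replicate 2 the log2 differences turned from 0.10 to -0.19 for Grin2a and from 0.16 to -0.0881 for Grin2b.

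The gap between the KO-WD libraries went with transcript length, whose part in the Grin2a and Grin2b values was not tested beyond the centring given below. Among the 1241 coding genes whose longest matched transcript reaches 7000 bases, KO-WD replicate 2 lay above KO-WD replicate 1 in 79.8%, with a median log2 gap of 0.21. Among the 3465 genes under 2000 bases it lay above in 33.7%, with a median gap of -0.13. Lengths were at hand for 97.6% of 14606 coding genes. The longest matched transcript of Grin2b has 24060 bases. That of Grin2a has 4395 bases and is nearly all coding sequence, whereas the longest coding Grin2a transcript in GENCODE has 14634 bases. When each library was centred within classes of length, an alternative chosen after seeing the data, the log2 difference was 0.0849 for Grin2a and 0.0897 for Grin2b, and 0 of the 7 genes passed in limma.

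**Figure D2:**
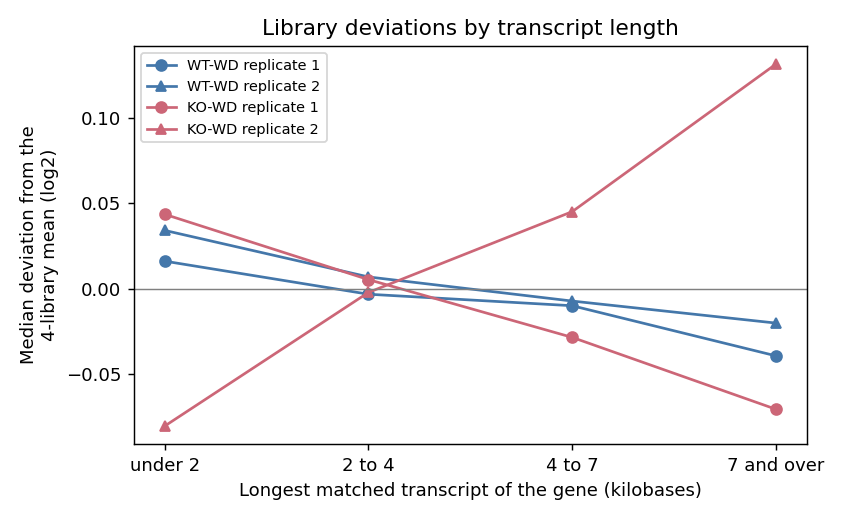
Median deviation of each library from the mean of the 4 libraries (log2) for coding genes in 4 classes of transcript length (kilobases), 1 line per library. KO-WD replicate 2 was lowest for short genes (-0.0806) and highest for genes of 7 kilobases and over (0.13), and KO-WD replicate 1 ran the other way (0.0437 and -0.0707).

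The ratio of Grin2a to Grin2b did not separate the genotypes. It was 0.750 and 0.860 in WT-WD and 0.748 and 0.789 in KO-WD as deposited. The groups overlapped, with a difference of -0.0642 in the log2 ratio (exact two-sided permutation test, p = 0.667), which turned to 0.0348 without WT-WD replicate 2 and became -0.163 without WT-WD replicate 1. With 2 against 2 libraries this test cannot go below 0.333. Grin2a and Grin2b together held 90.8% and 88.9% of the GluN2 signal in WT-WD and 90.8% and 92.0% in KO-WD.

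Grin2c, which encodes a subunit best known from cerebellar granule cells and glia, gave 92.8 and 107.9 units in WT-WD and 79.2 and 110.6 units in KO-WD. The genotypes overlapped, and KO-WD held both the lowest and the highest value (fold change 0.936, 95% interval 0.688 to 1.27, limma adjusted p = 0.965). Of 6 cerebellar granule markers 4 were listed, with sums of 39.1 to 56.2 units. Gabra6 and Barhl1 were not among the listed genes, Cbln3 stood between 1.33 and 3.78 units and En2 between 1.33 and 2.50 units. Cbln1, at 10.4 to 29.6 units, and Neurod1, at 21.7 to 24.99 units, made up most of the sum. All 4 listed markers were above the floor of 3 reads in every library. Summed astrocyte markers gave 2908 and 3124 units in WT-WD and 2607 and 2575 units in KO-WD, and their part in the Grin2c values was not tested. The log2 difference of Grin2c turned to 0.0129 without WT-WD replicate 2 and to 0.14 without KO-WD replicate 1.

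Grin2d, a subunit found mainly in interneurons of the adult hippocampus, gave 23.5 and 29.5 units in WT-WD and 24.6 and 19.7 units in KO-WD. The ranges overlapped, with the lowest value in KO-WD replicate 2 (fold change 0.841, 95% interval 0.582 to 1.21, limma adjusted p = 0.918). The log2 difference of -0.25 ran from -0.41 without WT-WD replicate 1 to -0.0927 without WT-WD replicate 2, and was -0.40 and -0.0972 without KO-WD replicates 1 and 2. The sum of the interneuron markers had the same library lowest, with 1387 and 1403 units in WT-WD and 1501 and 1218 units in KO-WD. Gad2 (188.5 units) and Slc32a1 (125.8 units) were lowest in WT-WD replicate 2 instead, and the other markers in KO-WD replicate 2. Of the 8 markers 4 had a higher and 4 a lower mean in KO-WD, and their part in the Grin2d values was not tested. Grin2d rested on only 85.0 to 157.2 estimated reads per library.

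Grin3a, the glycine-binding subunit that is most abundant around birth and persists in somatostatin interneurons, gave 153.7 and 134.3 units in WT-WD and 128.5 and 136.8 units in KO-WD. It lies on chromosome 4, as Tas1r3 does. The genotypes overlapped (fold change 0.923, 95% interval 0.748 to 1.14, limma adjusted p = 0.929). The log2 difference of -0.12 became -0.0185 and -0.21 when WT-WD replicates 1 and 2 were dropped in turn, and -0.0704 when KO-WD replicate 1 was. Sst, the gene of somatostatin, stood at 280.4 and 314.9 units in WT-WD and at 331.3 and 212.8 units in KO-WD.

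Grin3b, best known from motor neurons, was at the edge of detection. It gave 1.59 and 1.56 units in WT-WD, from an estimated 6.15 and 8.30 reads, and 0.667 and 0.695 units in KO-WD, from 3.01 and 3.00 reads. Both KO-WD libraries lay below both WT-WD libraries, which made it the only member without overlap, 1 of 7 against 36.3% of all genes (18.4% lower without overlap). It did not pass in limma (log2 -0.61, SE 0.40, adjusted p = 0.91). Summed to 14 and 6 whole reads, the KO-WD level was 0.446 of the WT-WD level, with an exact 95% interval from 0.141 to 1.24 that covers counting error only. A floor of 3 reads per library corresponds to 0.563 to 0.775 units, so the KO-WD values were at the floor.

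**Figure D3:**
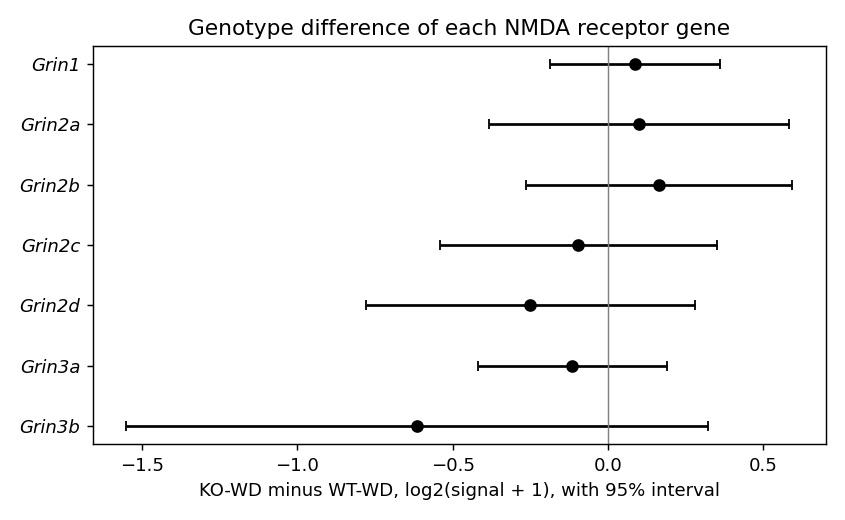
Log2 difference of KO-WD minus WT-WD on the log2(signal + 1) scale for each NMDA receptor gene, with the 95% interval from limma. All 7 intervals include 0, and the widest belongs to Grin3b.

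Levels of different genes were set against each other per length. This takes the deposited signal as not already divided by length, which no source used here states. Per 1000 bases of coding sequence, Grin1 averaged 771 units over the 4 libraries, Grin2b 150.2, Grin2a 119.6, Grin3a 41.0, Grin2c 26.3, Grin2d 6.13 and Grin3b 0.375. For Grin1 the mean coding length of its matched transcripts, 2729 bases, was also applied to those without a match. On this scale Grin1 held between 67.2% and 71.4% of the signal of the family in each library. Grin2b held 12.7% to 14.9% and Grin2a 9.61% to 11.9%, so their ranges did not meet. Grin3a held 3.22% to 4.13%, above the 2.05% to 2.76% of Grin2c, and Grin2d held 0.394% to 0.706%. Coding length leaves out untranslated bases, which the signal of a whole transcript may include. Of the 24060 bases of the long Grin2b transcript 4446 are coding, against 4392 of 4395 for Grin2a. For the longer Grin3a transcript it is 3405 of 7491, against 3717 of 4895 for Grin2c. The part of this in the orders was not tested.

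The order of Grin2a and Grin2b depended on the length used. Dividing by the whole matched transcript instead put Grin2a, at 14.2% to 17.8%, above Grin2b, at 6.58% to 7.07%. That order in turn rests on the short matched Grin2a transcript. Grin1 transcripts without a match were given the mean length of the matched ones, which held 44.7% to 49.4% of the Grin1 signal. The shares of all genes on this scale depend on that assumed length, but the order of Grin2a and Grin2b does not. Grin2c (2.30% to 3.09%) and Grin3a (2.17% to 2.78%) then overlapped and could not be ordered. Grin1 came first, and Grin2d and Grin3b last, on both scales.

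**Figure D4:**
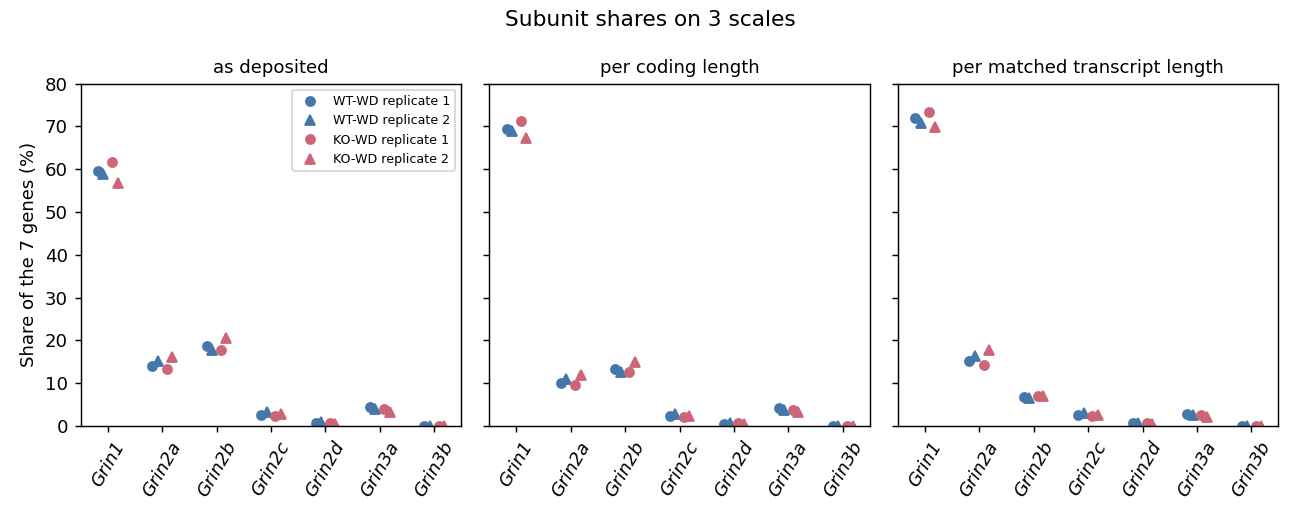
Share (%) of each gene in the summed signal of the 7 NMDA receptor genes, 1 point per library, as deposited, per coding length and per matched transcript length. Grin1 leads on each scale, while Grin2a and Grin2b change places between the middle and the right panel. Both length scales use the mean length of the matched Grin1 transcripts for those without a match.

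Subunit shares overlapped between the genotypes for 5 of the 7 genes. In signal 36.3% of all genes did not overlap, and no such rate was computed for shares. As deposited, Grin1 held 59.6% and 59.0% of the family's signal in WT-WD and 61.7% and 56.8% in KO-WD. The mean share of Grin2b was 1.00 percentage point higher in KO-WD and that of Grin3a 0.55 points lower, the latter without overlap (4.38% and 3.99% against 3.91% and 3.36%). The exact two-sided permutation test gave p = 0.667 for Grin2b, whose difference turned to -0.302 points without KO-WD replicate 2, and p = 0.333, the smallest it allows, for Grin3a. Grin3b, near 0.05% and 0.02%, was the other gene without overlap.

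Grin1 transcripts were tested individually, and none of the 16 transcripts of the family passed in limma, as was true of all 29293 transcripts tested (0%). At an unadjusted p under 0.05 the count was 1 of 16, against 5.69% of all transcripts. Genotypes did not overlap for 6 of the 16, against 35% of all transcripts. Of these, 4 were higher (17.1% of all transcripts) and 2 lower (17.9%) in KO-WD. Over any size 6 were higher and 10 lower, where 49.6% of all transcripts were higher. The transcripts of a gene share most of their sequence, so their values depend on how the authors' software divided shared reads, and that error is not in the deposited values.

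NM_001177657, the shortest of the 3 matched proteins with neither N1 nor C1 and the C2' end shown above, was the most abundant Grin1 transcript. It gave 607 and 579 units in WT-WD and 659 and 736 units in KO-WD, so that both knockout libraries were above both wild-type libraries. The fold change was 1.17 (95% interval 0.936 to 1.47, limma adjusted p = 0.92). Its share of the Grin1 signal was 29.0% and 29.2% in WT-WD and 32.5% and 31.8% in KO-WD.

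NM_001177656 differs from it only by holding the N1 exon among the parts described here. This transcript gave 226.9 and 181.4 units in WT-WD and 170.3 and 185.3 units in KO-WD, with overlap in signal. Its share of Grin1 was 10.8% and 9.14% in WT-WD and 8.40% and 8.02% in KO-WD, without overlap. The ratio of the transcript with N1 to its counterpart without N1 was 0.374 and 0.313 in WT-WD and 0.258 and 0.252 in KO-WD. Both KO-WD ratios were below both WT-WD ratios, by a mean of -0.42 in log2 (exact two-sided permutation test, p = 0.333, the smallest it allows).

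NM_008169, with C1 and C2 and without N1, was a minor transcript at 120.4 and 126.6 units in WT-WD and 170.9 and 147.3 units in KO-WD. Its signal did not overlap between the genotypes (fold change 1.28, 95% interval 0.974 to 1.69, limma adjusted p = 0.883). As a share of Grin1 it stood at 5.75% and 6.38% in WT-WD and at 8.43% and 6.37% in KO-WD, with overlap. The 3 matched transcripts together held 45.6% and 44.7% of the Grin1 signal in WT-WD and 49.4% and 46.2% in KO-WD.

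Among the 5 unmatched Grin1 transcripts, NM_001372559 had the smallest p-value of the family. It gave 132.9 and 118.1 units in WT-WD and 77.6 and 90.5 units in KO-WD, from between 349.9 and 629.6 estimated reads. The knockout libraries were both below the wild-type libraries. Fitted by limma across all transcripts, the fold change was 0.672 (95% interval 0.492 to 0.916, adjusted p = 0.837). Its share of Grin1 was 6.35% and 5.96% in WT-WD and 3.83% and 3.92% in KO-WD.

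NM_001372562, the second most abundant, gave 404 and 390 units in WT-WD and 434 and 564 units in KO-WD, higher in KO-WD without overlap (limma adjusted p = 0.92). NM_001372561 gave 347 and 368 units in WT-WD and 293 and 349.9 units in KO-WD, and its share was lower in KO-WD without overlap, at 16.6% and 18.6% against 14.4% and 15.1%. NM_001372560 and NM_001372558 overlapped between the genotypes in signal and in share. Shares of a gene sum to 100%, so they are not separate observations, and how often such shares overlap over all genes was not computed.

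**Figure D5:**
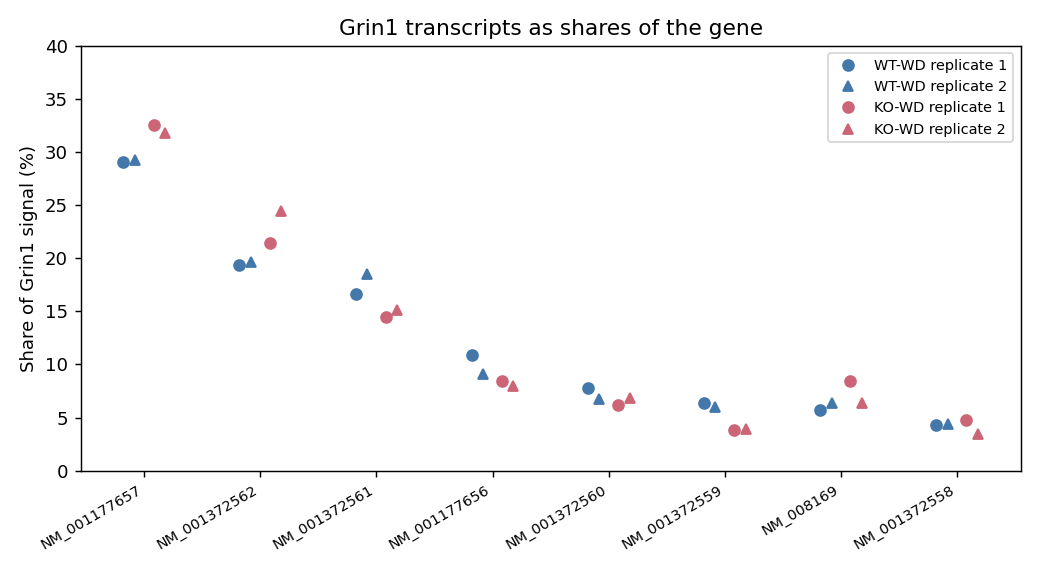
Share (%) of the Grin1 signal held by each of its 8 deposited transcripts, 1 point per library, WT-WD in blue and KO-WD in red. NM_001177657 and NM_001372562 were higher and NM_001372561, NM_001177656 and NM_001372559 lower in both KO-WD libraries than in both WT-WD libraries.

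Grin1os, an antisense non-coding gene on the other strand, overlaps exons of Grin1. Of its 2891 exonic bases, 1307 lie in exons of each of the 3 matched Grin1 transcripts. It gave 4129 and 3699 units in WT-WD and 3629 and 4852 units in KO-WD, between 1.79 and 2.10 times the signal of Grin1 in the same library. The use of read strand is not given in the sources used here, and without it reads within the shared bases cannot be assigned to either gene. The fold change of Grin1os was 1.07 (limma adjusted p = 0.952), with the same library lowest in KO-WD and the same library highest as for Grin2a and Grin2b.

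Grin2b and Grin3a each had a pair of deposited transcripts. Of Grin2b, NM_008171, with a matched length of 7484 bases, gave 253 and 242.6 units in WT-WD and 264.6 and 270.6 units in KO-WD. It was the steadier of the pair and higher in KO-WD without overlap (fold change 1.08, 95% interval 0.867 to 1.34, limma adjusted p = 0.956). NM_001363750, the one of 24060 bases with the same coding length, gave 403 and 351 units in WT-WD and 322 and 563 units in KO-WD. The high gene sum of KO-WD replicate 2 lay in the long transcript, which held 67.6% of Grin2b there and 54.9% in KO-WD replicate 1.

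Grin3a divided differently in the KO-WD libraries. NM_001276355 held 48.9% and 47.7% of Grin3a in WT-WD but 28.0% and 59.9% in KO-WD. In signal it stood at 75.2 and 64.0 units in WT-WD and at 36.0 and 81.9 units in KO-WD, and NM_001033351 ran the other way at 78.5 and 70.3 units against 92.5 and 54.9 units. The gene sums moved far less, as given above.

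Genes that work with NMDA receptors were counted in 6 lists, and 0 of the 120 genes tested in them passed in limma, against 0.0637% of all genes. At an unadjusted p under 0.05 there were 4 of the 120, against 5.28% of all genes. Under the other settings that kept all 4 libraries, a gene passed in the co-agonist list alone, Gcsh with the replicate number as a block. The share of all genes that passed under that setting is not given here, so this count cannot be set against it.

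The co-agonist list holds genes that make, clear or carry glycine and D-serine, along with Ddo, which acts on D-aspartate instead. Of 16 tested, 6 were higher and 10 lower in KO-WD, with a median log2 difference of -0.0571. Srr, which makes D-serine, had a mean of 336.7 ± 1.02 units (SD, n = 2) in WT-WD against 353.1 ± 6.29 in KO-WD, and Slc6a9, the glial glycine transporter, 116.2 ± 3.67 and 99.99 ± 13.7. The smallest p-values were those of Ddo, an oxidase of D-aspartate (14.6 and 16.3 units in WT-WD against 20.3 and 24.8 in KO-WD, log2 0.51), Phgdh, the first enzyme of serine synthesis (108.5 and 105.8 units, 89.4 and 89.7 in KO-WD, log2 -0.26), and Gcsh. Gcsh, a carrier protein of glycine cleavage, had a log2 difference of 0.89 as a sum. Its coding signal ran the other way, at 52.0 and 53.5 units in WT-WD and 41.7 and 35.1 units in KO-WD (log2 -0.45, limma adjusted p = 0.777).

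In the list of glutamate supply and clearance, 7 of 14 genes were higher and 7 lower (median 0.0108). Slc17a7, the vesicular glutamate transporter of most hippocampal excitatory neurons, had a mean of 2026 ± 95.9 units (SD, n = 2) in WT-WD against 2162 ± 7.28 in KO-WD. Slc17a6, the transporter that prevails in the thalamus, had the smallest p-value (43.7 and 45.2 units in WT-WD against 34.9 and 21.8 in KO-WD, log2 -0.67, limma adjusted p = 0.902). Glul, which makes glutamine from glutamate, had a log2 difference of -0.15.

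Scaffold genes hold or carry NMDA receptors at the synapse. Of 24 tested, 15 were higher and 9 lower, with a median of 0.0330. Dlg4, which encodes PSD-95, had a mean of 2057 ± 105 units (SD, n = 2) in WT-WD against 2186 ± 145 in KO-WD. The smallest p-values were those of Dlg3, which encodes SAP102 (457 and 422 units in WT-WD against 481 and 501 in KO-WD), Lin7a and Dlg1, with log2 differences of 0.16, -0.18 and -0.18.

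Kinases, phosphatases and their anchors numbered 24 tested genes, 13 higher and 11 lower, with a median of 0.00977. Camk2a, the kinase that binds GluN2B, had a mean of 7965 ± 469 units (SD, n = 2) in WT-WD against 8676 ± 1031 in KO-WD. Camk2b gave 1968 and 2070 units in WT-WD and 2296 and 2373 units in KO-WD, without overlap (log2 0.21, SE 0.11, limma adjusted p = 0.902). Src, a tyrosine kinase that acts on GluN2A, had a log2 difference of 0.17. Cdk5, which phosphorylates GluN2A, had a log2 difference of -1.24 as a sum, with 2343 and 1864 units in WT-WD against 599 and 1295 units in KO-WD. That difference lay in its non-coding transcripts. The coding ones gave 116.5 and 137.7 units in WT-WD and 168.4 and 138.4 units in KO-WD, nearly touching (log2 0.27, limma adjusted p = 0.834). In gene sums 6 of the 24 genes of the list did not overlap, against 36.3% of all genes.

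Of 22 binding partners 14 were higher and 8 lower (median 0.0676). The smallest p-values were those of Actn1, an actinin of the family that binds GluN1 (254.6 and 256.0 units in WT-WD against 287.2 and 337.6 in KO-WD), of the calmodulin gene Calm2 (1728 and 1857, 1419 and 1603) and of the dopamine receptor gene Drd1 (15.5 and 11.1, 9.08 and 7.63). None of these 3, picked by p, overlapped between the genotypes, as was so for 14 of the 22 genes of the list and 36.3% of all genes. None passed (limma adjusted p = 0.902 for each).

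Neuronal splicing factors were listed because Grin1 is alternatively spliced, with 10 of 20 higher and 10 lower (median 0.00). Hnrnpa1, a general splicing repressor, gave 149.7 and 170.0 units in WT-WD and 117.3 and 132.2 units in KO-WD. Khdrbs3 gave 258.6 and 282.3 against 231.3 and 216.5 units, and Hnrnph1 419.6 and 472.8 against 341.9 and 412.2 units. These 3, picked by p, were lower in KO-WD without overlap, by log2 differences of -0.35, -0.27 and -0.25. Over the list 8 of 20 did not overlap in either direction, against 36.3% of all genes (18.4% lower). The 3 did not pass (limma adjusted p = 0.902 for each). Nova2, a splicing factor of neurons, averaged 380.1 ± 18.3 and 403.2 ± 5.80 units.

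The genes whose pattern over the 4 libraries came closest to that of each main subunit were ranked among 7153 genes by the root mean square difference of centred log2 values. For Grin1 they were Eloa, Dock9 and Cacul1, with differences of 0.00848, 0.0117 and 0.0121. For Grin2a they were Crebbp, Tnik and Ep400 (0.0186, 0.0209 and 0.0232), and for Grin2b Zscan26, Chd6 and Nup153 (0.0247, 0.0272 and 0.0273). Crebbp gave 121.7 and 129.1 units in WT-WD and 107.2 and 165.6 units in KO-WD, with its extremes in the same libraries as Grin2a. Such closeness over 4 libraries was not confined to the named genes. Of the 7153 genes, 325 lay within 0.05 of Grin1, 29 of Grin2a and 39 of Grin2b. Within 0.1 there were 1880, 277 and 312. Shared control of these genes was not tested.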

How the data were processed

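For each library the authors deposited normalized signal for the same 30108 RefSeq transcripts. STAR, Partek and mm39 are named in the submitters' processing notes, without versions, and per the labels' protocols an Ion Total RNA-Seq kit was used. No source used here gives the quantification model, the normalization or the use of strand. A constant of 0.0001 was subtracted. Low values pile up at multiples of a step per library, which gave the estimated reads. Only 16.9% to 23.5% of values below 20 reads were whole within 0.02 read, so no count model was used and the test for normalized values in the design replaced that for counts.

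Symbols came from a RefSeq table of GRCm38.p6 (30073 transcripts matched, 35 not), and lengths, exons and sequences from GENCODE M21 (GRCm38). That is not the authors' build and was used for names and structures only. Genes with at least 1 unit in 2 libraries were tested as log2(signal + 1) in limma 3.58.1 (R 4.3.3) with trend and robust moderation, two-sided, with Benjamini-Hochberg adjustment over all genes or transcripts. The fit was tested on simulated data. Intervals of read counts cover counting error only.

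The members, lists, tests and alternatives were chosen with earlier results of these data known. In each list the members past the threshold, or otherwise the 3 with the smallest p, are named, except for an item that is not reported here. Srr, Slc6a9, Slc17a7, Dlg4, Camk2a, Nova2, Grin1os and the length classes were chosen after their values were seen.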

Additional observations from a re-analysis of the deposited data

How the results depend on the processing

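With 2 libraries per genotype the fits had 2 residual degrees of freedom, and depth limits only Grin3b, and Grin2d to a lesser degree. In limma 0 NMDA receptor genes and 0 of their transcripts passed under quantile normalization, median-ratio scaling, other filters, pseudocounts of 0.1 and 0.5, no trend or robust moderation, voom weights, and each library left out, as did genes from coding transcripts alone or after length-class centring. A fit that leaves an arm with 1 library assumes that it varies like the others. Replicate numbers do not pair the samples by the labels (deviations of same-numbered libraries correlated at 0.0383 across genes). The replicate block gave 0 receptor genes, 0 transcripts and 1 co-agonist gene (Gcsh). The share of all genes passing is not given here for this block or for fits with a library left out. Leaving out libraries gave 0 to 1 kinase and phosphatase genes (Cdk5). Log2 differences that changed sign when a library was left out ranged from -0.00769 to 0.18 for Grin1, -0.19 to 0.39 for Grin2a and its transcript NM_008170, -0.0881 to 0.42 for Grin2b, -0.33 to 0.14 for Grin2c and its transcript NM_010350, -0.43 to 0.31 for NM_001033351, -0.93 to 0.24 for NM_001276355, -0.22 to 0.58 for NM_001363750, -0.14 to 0.14 for NM_001372558 and -0.24 to 0.10 for NM_001372560. NM_001372558, at -0.00197, also turned to 0.00157 with median-ratio scaling and 0.00317 with voom weights. The Grin3b share difference of -0.0271 percentage points became -0.0232 with quantile normalization and -0.0389 per matched transcript length. Share differences that changed sign with a library left out ranged from -2.52 to 2.38 points for Grin1, -1.24 to 1.56 for Grin2a, -0.302 to 2.31 for Grin2b and -0.866 to 0.455 for NM_001372558 within Grin1, and the Grin2a to Grin2b log2 ratio difference from -0.163 to 0.0348. Without changing sign, Grin2d ran from -0.41 to -0.0927 and Grin3a from -0.21 to -0.0185 in log2. The cause of these changes was not tested. Grin3b had no value with the filter at 5 units or without either WT-WD library, where it did not pass the filter.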
